A study of Homo sapiens with 15 samples.

Results

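The VEGF family, the factors that activate it and its receptors were followed through the active histone marks of MDA-MB-231 breast cancer cells and their metastatic sub-populations. The 10 genes were the ligands VEGFA, VEGFB and VEGFC, the VEGF-C processing factors CCBE1 and ADAMTS3, the receptor tyrosine kinases FLT1 (VEGFR1), KDR (VEGFR2) and FLT4 (VEGFR3), and the co-receptors NRP1 and NRP2. Their regions were every H3K4me3 consensus peak within 2 kb of a protein-coding start of a listed gene, and every H3K27ac consensus peak within 100 kb whose nearest protein-coding start was that of a listed gene. This gave 10 of 22572 H3K4me3 peaks, 1 for each gene, and 97 of 62195 H3K27ac peaks. The list was chosen by a pattern already seen in the H3K4me3 counts, a low level at the CCBE1 start in LM2, so the H3K4me3 values of CCBE1 are a description with no test. The rule itself used the position of consensus peaks alone and set no threshold on counts beyond the peak calling.

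Chromatin was profiled by ChIP-seq in 3 lines. Par is the unselected MDA-MB-231 line, a claudin-low, triple-negative human breast cancer line. LM2 and BrM2 are sub-populations of it that were selected in mice for growth in lung and brain, and each site is represented by 1 such sub-population. All cells grew in the same way before fixation: as a monolayer for 3 days in DMEM with 10% FBS and penicillin-streptomycin. H3K4me3 marks active promoters and H3K27ac marks active promoters and enhancers. Each line had 2 replicates per mark, 12 libraries in all.

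VEGF-A signals through FLT1 and KDR and drives blood vessel growth, and VEGF-B binds FLT1. VEGF-C drives lymphatic growth through FLT4 after its propeptides are cut off, a step in which the secreted protein CCBE1 brings the protease ADAMTS3 to its substrate at the cell surface. Neuropilins bind VEGFs and class 3 semaphorins and strengthen signalling through the receptors. Tumour cells are known chiefly as a source of VEGFs, while FLT1, KDR and FLT4 are best known from endothelium.

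Counts in consensus peaks totalled 3489607 to 9839629 per H3K4me3 library and 1994996 to 6450028 per H3K27ac library, the lowest being BrM2 replicate 2. In H3K4me3, replicate 2 was deeper than replicate 1 in every line, and libraries with the same replicate number deviated from their line means together. Where adding the replicate number as a block changed a call, that result is given too. Levels are in CPM, the counts in a peak relative to that library's total in all consensus peaks of the mark, and between genes only in CPM per kb of peak. Promoter H3K4me3 was found at 6 of 8 breast epithelial markers, with KRT5 and KRT14 without a consensus peak, at 5 of 5 luminal markers and at 5 of 6 mesenchymal markers, TWIST1 having none. The presence of a consensus peak does not give its level: the mean was 5.32 CPM at CDH1 and 10.5 CPM at PGR. Of 8 blood endothelial markers, 6 (PECAM1, CDH5, TIE1, TEK, VWF and EMCN) had no H3K4me3 consensus peak at a start. Of 4 lymphatic endothelial markers, LYVE1 and PDPN had none, and PROX1 and SOX18 had a peak.

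The sequences before the starts of CCBE1 and FLT1 are shown because H3K4me3 there differed most between the lines, and that of VEGFA as the family's most strongly marked promoter. Each is the 250 bases before the gene's 5′-most annotated start in hg19, written 5′ to 3′ on the gene's strand, with every GC box (GGGCGG or its reverse complement) in capitals. The windows are chr18:57364895-57365144 (minus strand), chr13:29069283-29069532 (minus strand) and chr6:43737671-43737920 (plus strand).
CCBE1: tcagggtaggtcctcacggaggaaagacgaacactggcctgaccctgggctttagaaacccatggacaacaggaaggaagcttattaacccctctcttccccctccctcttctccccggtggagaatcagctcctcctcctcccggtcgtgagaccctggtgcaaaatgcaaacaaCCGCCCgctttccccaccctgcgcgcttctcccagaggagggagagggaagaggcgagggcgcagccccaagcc
FLT1: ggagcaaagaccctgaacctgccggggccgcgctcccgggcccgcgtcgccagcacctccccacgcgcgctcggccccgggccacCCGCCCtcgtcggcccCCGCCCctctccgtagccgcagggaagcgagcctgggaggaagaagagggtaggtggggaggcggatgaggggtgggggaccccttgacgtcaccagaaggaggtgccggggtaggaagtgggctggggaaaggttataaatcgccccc
VEGFA: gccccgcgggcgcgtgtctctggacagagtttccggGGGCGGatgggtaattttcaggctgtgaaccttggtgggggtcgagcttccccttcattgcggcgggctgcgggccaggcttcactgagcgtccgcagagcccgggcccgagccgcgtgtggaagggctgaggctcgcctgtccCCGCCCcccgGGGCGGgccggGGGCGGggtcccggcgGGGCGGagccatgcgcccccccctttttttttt

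The FLT1 and VEGFA windows lay wholly inside the H3K4me3 peak and held no annotated exon. Of the CCBE1 window, 121 bases were inside the peak, and an exon of a lncRNA on the opposite strand overlapped it. The CCBE1 window held 11 CpG dinucleotides, the fewest of the 10 genes, whose other windows held 15 to 34, beside a median of 14.0 over 19790 protein-coding genes. GC boxes numbered 1 before CCBE1, 2 before FLT1 and 5 before VEGFA, and 48.9% of all windows held at least 1. The core letters of the hypoxia response element (ACGTG, both strands) occurred before ADAMTS3 and NRP1 alone among the 10 genes and in 19.7% of all windows. The AP-1 letters (TGANTCA, both strands) occurred before none of the 10 genes and in 5.49% of all windows.

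Every gene of the family had an H3K4me3 peak over a start, but their levels spanned a wide range. VEGFA stood highest with a mean of 65.6 CPM per kb over the 6 libraries, a level above that of 98.8% of 13369 promoter peaks. NRP1 (36.9), VEGFB (35.9) and VEGFC (27.1) followed, then NRP2 (17.2), ADAMTS3 (14.3) and KDR (10.3), and CCBE1 (6.13), FLT1 (3.91) and FLT4 (3.67) were lowest, on the same scale. The order at the low end differed by line, since in BrM2 the mean levels of CCBE1 (13.6 CPM per kb) and FLT1 (10.7) lay beside that of KDR (9.90), while in Par and LM2 FLT1 (0.280 and 0.756) lay below FLT4 (3.80 and 4.21). Only 3 steps in this order separated genes whose ranges over the 6 libraries did not overlap: VEGFA above NRP1, VEGFB above VEGFC, and VEGFC above NRP2. The marked regions of NRP1 (8498 bp), VEGFA (6274 bp), VEGFC (5499 bp) and NRP2 (4845 bp) were long, and at least 95% of promoter peaks were shorter than each of them. The H3K4me3 peaks of the 3 receptor kinases were overlapped by no H3K27ac peak, whereas the other 7 were, as were 94.7% of promoter H3K4me3 peaks overall.

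**Figure D1:**
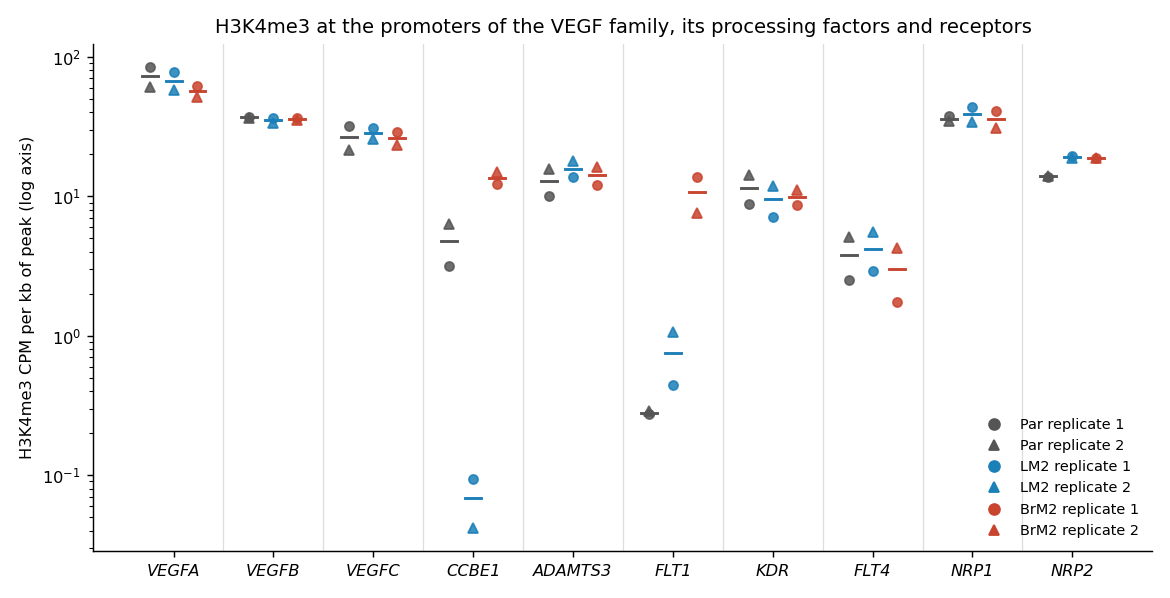
H3K4me3 in CPM per kb of peak (log axis) at the promoter of each of the 10 genes, with 1 point per library and a bar at the mean of the 2 replicates of each line. CCBE1 lay far lower in LM2 (0.0943 and 0.0418) than in Par or BrM2, and FLT1 was far higher in BrM2 (13.8 and 7.60) than in Par or LM2.

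Outside CCBE1, few of the promoters changed. In LM2 against Par, 0 of the 9 tested H3K4me3 peaks passed an adjusted p of 0.05 in DESeq2, beside 2.32% of all peaks (1.82% higher), 0 had an unadjusted p under 0.05, and edgeR called 0, beside 1.61%. In BrM2, 1 of 9 was called against Par, beside 3.54% of all peaks (2.77% higher), and 1 of 9 against LM2, beside 3.18% (2.05% higher). Each time it was FLT1, which was higher, and edgeR called the same number, beside 3.07% and 2.81%. The median log2 fold change of the 9 was 0.15, -0.11 and -0.21 in the 3 comparisons, beside 0.02, -0.02 and -0.04 over all peaks. With the replicate block, which called 12.7%, 17.3% and 21.1% of all peaks, 1, 2 and 2 of the 9 were called.

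Among the ligands, the VEGFA promoter (chromosome 6, 43737159 to 43743432, overlapping exons) carried 84.5 and 60.5 CPM per kb of H3K4me3 in Par, against 77.7 and 57.4 in LM2 and 61.8 and 51.9 in BrM2. The 3 lines overlapped, with replicate 1 above replicate 2 in each. The log2 fold change of BrM2 against Par was -0.43 (95% interval -1.18 to 0.32, adjusted p = 0.908 by DESeq2). Within replicate numbers BrM2 was lower in both pairs, and with the block the difference was -0.40 against Par (adjusted p = 0.000111) and -0.33 against LM2 (adjusted p = 0.00157). It rested on a fit with 2 residual degrees of freedom, and without Par replicate 1 the unblocked difference from Par was 0.00. VEGFA had 10 H3K27ac peaks, of which 0 were called in any comparison (smallest adjusted p = 0.632). Of these, 9 lay below Par in LM2 (median log2 fold change -0.67) and 8 in BrM2 (median -0.37). They summed to 196.4 and 185.1 CPM in Par, against 178.9 and 159.0 in LM2 and 144.0 and 176.4 in BrM2. Both Par libraries thus lay above all others, in a sum that was not tested. The promoter H3K27ac peak of VEGFA, of 8371 bp, held 151.9 and 124.0 CPM in Par, against 141.4 and 115.9 in LM2 and 113.2 and 123.8 in BrM2. There the lines overlapped. The strongest distal peak within the 100 kb limit, 22535 bp from the nearest start and outside the gene, held 11 to 18.9 CPM over the 6 libraries.

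VEGFB, the FLT1-binding ligand, was the steadiest promoter of the set, with H3K4me3 between 33.7 and 37.3 CPM per kb in every library. Its log2 fold changes were -0.03 in LM2 and -0.11 in BrM2 against Par (95% interval of the second -0.77 to 0.55). The peak (chromosome 11, 64000943 to 64003349) also covers the start of DNAJC4, so its reads cannot be assigned to VEGFB alone. Its 1 H3K27ac peak held 13.7 and 26.1 CPM in Par, against 11 and 18.1 in LM2 and 8.41 and 15 in BrM2. Replicate 2 exceeded replicate 1 in each line, the lines overlapped, and the fold changes of -0.52 and -0.79 against Par did not pass the test (adjusted p = 0.787 and 0.448).

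VEGFC, the lymphangiogenic ligand, was marked in all 3 lines. Promoter H3K4me3 (chromosome 4, 177709501 to 177714999) was 31.8 and 21.6 CPM per kb in Par, against 31.1 and 25.8 in LM2 and 29.1 and 23.2 in BrM2, and these ranges overlapped. Of its 15 H3K27ac peaks, 0 were called (smallest adjusted p = 0.184). The broad peak of 9630 bp over the promoter held 93.1 and 60.3 CPM in Par, against 95.5 and 87.2 in LM2 and 130.2 and 93.2 in BrM2, a log2 fold change of 0.55 in BrM2 against Par (SE 0.30, adjusted p = 0.378). The strongest distal peak within the 100 kb limit, an intronic region of 6639 bp, held 24.8 to 52.7 CPM, with replicate 1 above replicate 2 in each line. Over the 15 peaks the medians were -0.35 in LM2 and -0.06 in BrM2 against Par.

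CCBE1, the cofactor of VEGF-C activation, showed the widest range of any promoter in the family. Its H3K4me3 peak (chromosome 18, 57362582 to 57365015, over the first exon) held 27 and 103 counts in Par, against 1 and 1 in LM2 and 136 and 294 in BrM2. On the CPM per kb scale these were 3.18 and 6.30 in Par, against 0.0943 and 0.0418 in LM2 and 12.2 and 15 in BrM2. The lines did not overlap: the mark was down to 1 count per library in LM2, intermediate in Par and highest in BrM2. The normalised count ratio of Par to LM2 was 90.4 (95% counting interval 24.5 to 755), and that of BrM2 to Par was 2.67. Counting intervals cover counting error only, and here, where the low LM2 value prompted the choice, the interval is no test. Of the 8 other H3K4me3 peaks within 1 Mb, 6 were lower and 2 higher in LM2, with a median of -0.15 and 0 called. In BrM2, however, all 8 were higher than in Par, with a median log2 fold change of 0.50 and 0 called, beside 1.46 at CCBE1. The part of the region in the CCBE1 level of BrM2 was not tested.

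The H3K4me3 profile of CCBE1 over the 6 libraries was most like those of KIF21B (Pearson r = 0.994), RPS6KA6 (0.992), IFIT3 (0.989), FGGY (0.989) and SNRPC (0.988), out of 12731 promoter peaks compared on log2 normalised counts. RPS6KA6 had the widest range of the 5, with 8.88 and 12.5 CPM in Par, against 0.230 and 0.305 in LM2 and 41.3 and 55.9 in BrM2. SNRPC ranged from 52.3 to 106 CPM. The 6 libraries share 3 lines and a depth difference between replicates, and among 12731 profiles some are alike at this n, so the r values are descriptions.

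H3K27ac at the CCBE1 promoter was also highest in BrM2, but at low counts. Because CCBE1 was chosen for its H3K4me3 in these same lines, H3K27ac near the same start need not be independent of that choice. The peak of 748 bp beside the start held 5 and 1 counts in Par, against 2 and 1 in LM2 and 28 and 6 in BrM2. BrM2 exceeded LM2 by a ratio of 19.6 (95% counting interval 6.15 to 99.5) and Par by 7.87 (3.26 to 22.9), and Par and LM2 overlapped. These intervals cover counting error only, not the spread between replicates. The log2 fold change of this peak in BrM2 against Par, 2.86, had an adjusted p of 0.0905 by DESeq2 and 0.013 by edgeR. DESeq2 gave no adjusted p against LM2 because of the low mean, while edgeR gave 0.00279.

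All 12 H3K27ac peaks assigned to CCBE1 had higher values in BrM2 than in Par, with a median log2 fold change of 1.10 (range 0.40 to 2.86), and all 12 were above LM2 too (median 0.95). Between LM2 and Par they were split, 6 above and 6 below, with a median of 0.02. Summed over the 12 peaks, H3K27ac was 59.3 and 56.6 CPM in Par, against 80.0 and 61.4 in LM2 and 145.5 and 112.3 in BrM2. Of the 12, 2 were called against Par, beside 4.37% of all H3K27ac peaks, and 1 against LM2, beside 2.2%. Within 1 Mb, 33 of the 39 other H3K27ac peaks were also above Par in BrM2, with a median of 0.56 and 2 called.

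The strongest CCBE1 element lay 17123 bp upstream of the start (chromosome 18, 57382017 to 57386716, outside the gene). It held 14.1 and 16.7 CPM in Par, against 27.4 and 21.3 in LM2 and 41.8 and 34.6 in BrM2. The 3 lines did not overlap, and BrM2 rose against Par by a log2 fold change of 1.32 (SE 0.35, adjusted p = 0.00694 by DESeq2). The values of LM2 fell between, at 0.60 above Par (adjusted p = 0.512). With the median of peaks within 5 Mb removed, the BrM2 difference was 0.55 (adjusted p = 0.594), and leaving out any 1 Par or BrM2 library raised the adjusted p to between 0.0614 and 0.365.

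A further element 45172 bp upstream (57410066 to 57413067) held 9.58 and 6.79 CPM in Par, against 14.1 and 9.57 in LM2 and 25.5 and 16.0 in BrM2. Only BrM2 stood clear of the other lines, and its log2 fold change of 1.36 against Par (SE 0.45, adjusted p = 0.0487) lay at the threshold. It was 0.60 (adjusted p = 0.714) with the 5 Mb medians removed, the adjusted p was 0.0502 with TMM scaling and 0.0513 with at least 10 counts in every library, and the call was lost without any 1 of the 6 libraries (adjusted p 0.0952 to 0.782). Nearer to the start, 3058 bp upstream (57367952 to 57368444), a short peak held 7 and 8 counts in Par, against 3 and 3 in LM2 and 30 and 10 in BrM2. BrM2 exceeded LM2 by 3.48 on the log2 scale (SE 0.91, adjusted p = 0.00921), a count ratio of 11.5 (95% counting interval 4.85 to 33.2). Like the promoter peak, it lies near the start whose low H3K4me3 in LM2 prompted the choice of CCBE1. This comparison need not be independent of that choice. The adjusted p was 0.134 with the 5 Mb medians removed, 0.114 without LM2 replicate 2 and 0.130 without BrM2 replicate 2, and with the replicate block DESeq2 gave none. The other 8 peaks with neither a call nor a place at the promoter had log2 fold changes of BrM2 against Par between 0.40 and 2.08.

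**Figure D2:**
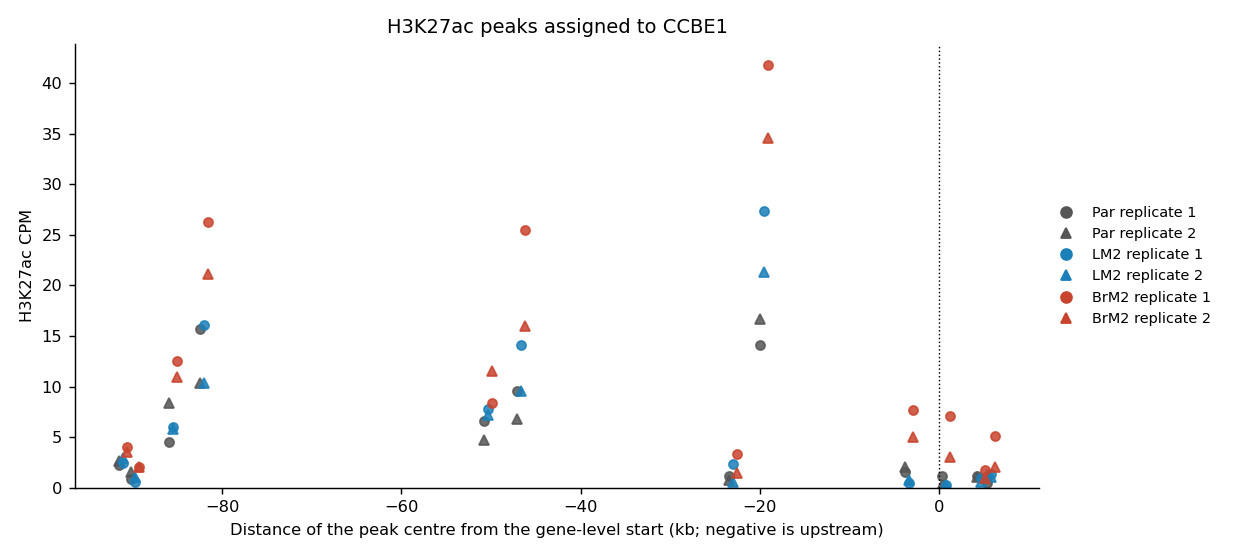
H3K27ac in CPM at the 12 peaks assigned to CCBE1, placed by the distance of the peak centre from the gene-level start in kb (negative is upstream, dotted line at the start), with 1 point per library and the lines set slightly apart. BrM2 points lay above those of Par and LM2 at the element 17123 bp upstream, where they reached 41.8 and 34.6 CPM, and at most of the others.

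ADAMTS3, the protease that CCBE1 brings to VEGF-C, did not follow its partner. Promoter H3K4me3 was 10.1 and 15.8 CPM per kb in Par, against 13.7 and 17.9 in LM2 and 12 and 16.3 in BrM2, and the lines overlapped with replicate 2 above replicate 1 in each. The difference between BrM2 and LM2 was -0.25 on the log2 scale (95% interval -0.93 to 0.42, adjusted p = 0.949). Its promoter H3K27ac peak held 13.7 and 11.7 CPM in Par, against 7.75 and 12.2 in LM2 and 10.2 and 7.02 in BrM2, with 0 calls, and its other peak, intronic and 64032 bp from the start, stayed at or below 1.78 CPM.

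FLT1, a high-affinity receptor for VEGF-A, VEGF-B and placental growth factor, was the promoter that rose in BrM2. The peak (chromosome 13, 29068749 to 29069791, 1043 bp over the first exon) held 1 and 2 counts in Par, against 2 and 11 in LM2 and 66 and 64 in BrM2. In CPM per kb these were 0.275 and 0.286 in Par, against 0.440 and 1.07 in LM2 and 13.8 and 7.60 in BrM2. BrM2 stood clear of both other lines, by a log2 fold change of 5.26 against Par (95% interval 3.17 to 7.35, adjusted p = 9.55e-05) and 3.71 against LM2 (95% interval 2.18 to 5.25, adjusted p = 0.000232). As count ratios these were 35 (95% counting interval 11.7 to 172) and 11.2 (6.34 to 21.6). Consensus peaks were called on merged reads, and most counts at FLT1 came from BrM2. The region may thus have become a peak through BrM2 alone, which these p-values do not take into account.

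LM2 lay above Par at FLT1 by a count ratio of 3.11 whose counting interval, 0.856 to 17.0, included no difference (adjusted p = 0.970). The call against Par was lost without Par replicate 2 (adjusted p = 0.107) or BrM2 replicate 1 (0.0792), and that against LM2 without LM2 replicate 2 (0.0586) or BrM2 replicate 1 (0.304). Over all alternatives the difference stayed between 4.61 and 5.75 against Par and between 3.11 and 4.37 against LM2. The BrM2 mean was 10.7 CPM per kb (SD 4.39, n = 2). The summed H3K4me3 of the blood endothelial markers was also highest in BrM2, at 183 to 190 CPM, beside 127 to 144 in Par and 127 to 129 in LM2. That sum came from ESAM (mean 138 CPM) and ROBO4 (11.5), the other 6 markers having no peak. The luminal sum was highest in BrM2 too, at 256 to 266 CPM, beside 180 to 187 in Par and 225 to 230 in LM2. The ranges of the other marker lists overlapped between BrM2 and Par.

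The only H3K27ac peak assigned to FLT1 lay 78870 bp upstream of its start (chromosome 13, 29148152 to 29151289, outside the gene). It held 5.02 and 5.48 CPM in Par, against 16.1 and 18.6 in LM2 and 16.8 and 16.5 in BrM2. Both metastatic lines stood above Par, by 1.66 in LM2 (SE 0.44, adjusted p = 0.00818) and 1.67 in BrM2 (SE 0.45, adjusted p = 0.0076), comparisons that share the Par libraries. Between BrM2 and LM2 the difference was 0.01 (95% interval -0.79 to 0.81). The element thus rose in LM2 without a call at the promoter, whereas promoter H3K4me3 differed between LM2 and BrM2 in the test above. Its link to FLT1 rests on the nearest start alone, and the next peak beyond it, 89953 bp from an FLT1 start, was assigned to POMP. Within 1 Mb, 15 of the 18 other H3K27ac peaks lay above Par in each line, with medians of 0.58 and 0.51. With the 5 Mb medians removed the LM2 difference was 1.09 (adjusted p = 0.221) and the BrM2 call was kept. Leaving out any 1 library of the lines compared ended the call, with adjusted p 0.126 to 0.249 in LM2 and 0.0956 to 0.242 in BrM2.

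KDR, the main signalling receptor of VEGF-A, kept a low and even promoter mark. H3K4me3 was 8.82 and 14.1 CPM per kb in Par, against 7.07 and 11.9 in LM2 and 8.71 and 11.1 in BrM2, and the lines overlapped (BrM2 against Par -0.27, 95% interval -1.10 to 0.57). The longest of its 3 H3K27ac peaks, of 11225 bp, lay 43305 bp upstream and outside the gene. It held 116.8 and 97.1 CPM in Par, against 74.7 and 76.1 in LM2 and 120.6 and 101.8 in BrM2. LM2 lay below the other lines without overlap, but the differences of -0.57 from Par (adjusted p = 0.304) and 0.63 for BrM2 against LM2 (adjusted p = 0.223) did not pass the test. With the replicate block, the difference of BrM2 from LM2 passed at 0.63 (adjusted p = 0.0440) and that of LM2 from Par did not (adjusted p = 0.0832). Over 45 other H3K27ac peaks within 1 Mb, the median was -0.30 in LM2 and -0.33 in BrM2 against Par, and 0.07 in BrM2 against LM2.

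FLT4, the VEGF-C receptor, had a low promoter level in every line. Its H3K4me3 was 2.51 and 5.09 CPM per kb in Par, against 2.92 and 5.50 in LM2 and 1.74 and 4.24 in BrM2. The lines overlapped, and BrM2 against LM2 gave -0.58 (95% interval -1.86 to 0.70, adjusted p = 0.920), an interval that includes large differences in both directions. No H3K27ac consensus peak was assigned to FLT4, and the nearest, 27766 bp away, was closer to SCGB3A1.

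NRP1, a neuropilin co-receptor, had the most H3K27ac peaks of the family. Its 43 peaks covered 138 kb, and only 7 of 15690 genes with an H3K27ac peak had more, beside a median of 2 peaks per gene. NRP1 has 13 annotated starts, which widens the region counted for it. Its farthest peak centre lay 220193 bp from the gene-level start, so the rank depends in part on the annotation. Their sum was 1011.5 and 839.4 CPM in Par, against 1017.2 and 898.3 in LM2 and 1071.6 and 890.2 in BrM2, so the lines overlapped while replicate 1 exceeded replicate 2 in each. The largest region, 21658 bp over an internal start, held 206.9 and 149.8 CPM in Par, against 194.0 and 165.4 in LM2 and 228.6 and 184.5 in BrM2. The region over the 5′-most start held 123.7 to 184.3 CPM, an intronic one of 7130 bp beside another internal start held 37.8 to 69.6, and the 4 short ones within 2 kb of starts held 0 to 4.51. Promoter H3K4me3 likewise did not separate the lines, at 37.6 and 34.5 CPM per kb in Par, against 43.4 and 34.1 in LM2 and 40.8 and 31.0 in BrM2. That peak lay over the 5′-most start, and no H3K4me3 consensus peak lay within 2 kb of the internal starts named here.

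Of the 43 NRP1 peaks, 1 was called. It lay 16988 bp upstream of the start (chromosome 10, 33642178 to 33645524, outside the gene) and held 27.8 and 24.8 CPM in Par, against 35.3 and 32.2 in LM2 and 59.4 and 52.1 in BrM2. The lines did not overlap, and BrM2 rose against Par by 1.09 (SE 0.31, adjusted p = 0.0126). Against LM2 the difference was 0.79 (adjusted p = 0.145, and 0.0404 with the replicate block). The call against Par was kept with the 5 Mb medians removed but lost without any 1 Par or BrM2 library (adjusted p 0.102 to 0.395). A peak 37716 bp from the nearest start (33430719 to 33436867), singled out after its values were seen, went the other way. It held 44.2 and 35.8 CPM in Par, against 48.4 and 37.5 in LM2 and 24.5 and 21.1 in BrM2, and its difference of BrM2 from LM2 passed only with the block (-0.85, adjusted p = 0.0446; without it -0.84, adjusted p = 0.170). The largest distal peak of NRP1, 12752 bp long, held 60.9 to 94.4 CPM, with LM2 highest (0.32 against Par, adjusted p = 0.751).

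**Figure D3:**
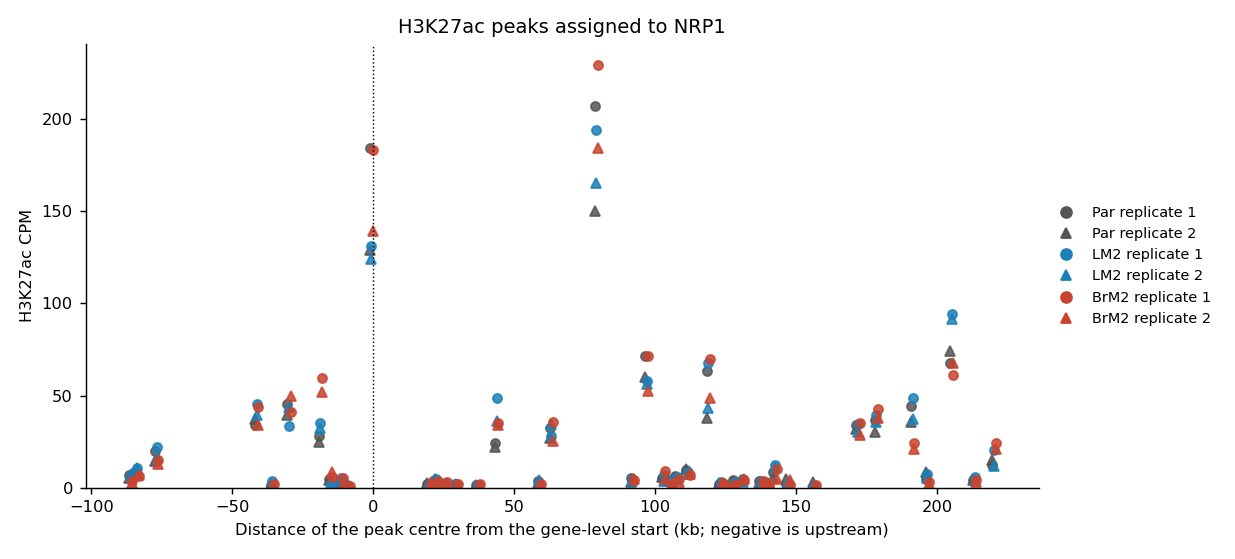
H3K27ac in CPM at the 43 peaks assigned to NRP1, placed by the distance of the peak centre from the gene-level start in kb (negative is upstream, dotted line at the start), with 1 point per library. The highest values lay over the start and at an internal start with no H3K4me3 peak within 2 kb, and the lines overlapped at both. BrM2 (59.4 and 52.1) exceeded Par (27.8 and 24.8) at the peak 16988 bp upstream.

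NRP2, the other neuropilin, had slightly more promoter H3K4me3 in the metastatic lines. The values were 13.8 and 14.0 CPM per kb in Par, against 19.3 and 18.7 in LM2 and 18.7 and 18.7 in BrM2. Both metastatic lines lay above Par without overlap, yet the log2 fold changes of 0.49 in LM2 (SE 0.33, adjusted p = 0.900) and 0.36 in BrM2 (SE 0.33, adjusted p = 0.917) did not pass the unblocked test. With the replicate block LM2 passed at 0.48 (adjusted p = 0.0075) and BrM2 at 0.36 did not (adjusted p = 0.0528). Of the 7 other H3K4me3 peaks within 1 Mb, 6 lay higher in LM2, with a median of 0.48. The 10 NRP2 H3K27ac peaks gave 0 calls. Both promoter peaks held 8.37 to 18.0 CPM, the second, of 1209 bp, reading 10.7 and 9.14 CPM in Par, against 8.37 and 12.8 in LM2 and 16.3 and 18.0 in BrM2 (BrM2 against Par 0.79, adjusted p = 0.390). The strongest distal peak, intronic and 16281 bp from the start, held 16.8 to 26.0 CPM. The 10 summed to 100.6 and 88.2 CPM in Par, against 75.2 and 88.8 in LM2 and 105.8 and 107.3 in BrM2, and their medians were -0.28 in LM2 and 0.09 in BrM2 against Par.

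**Figure D4:**
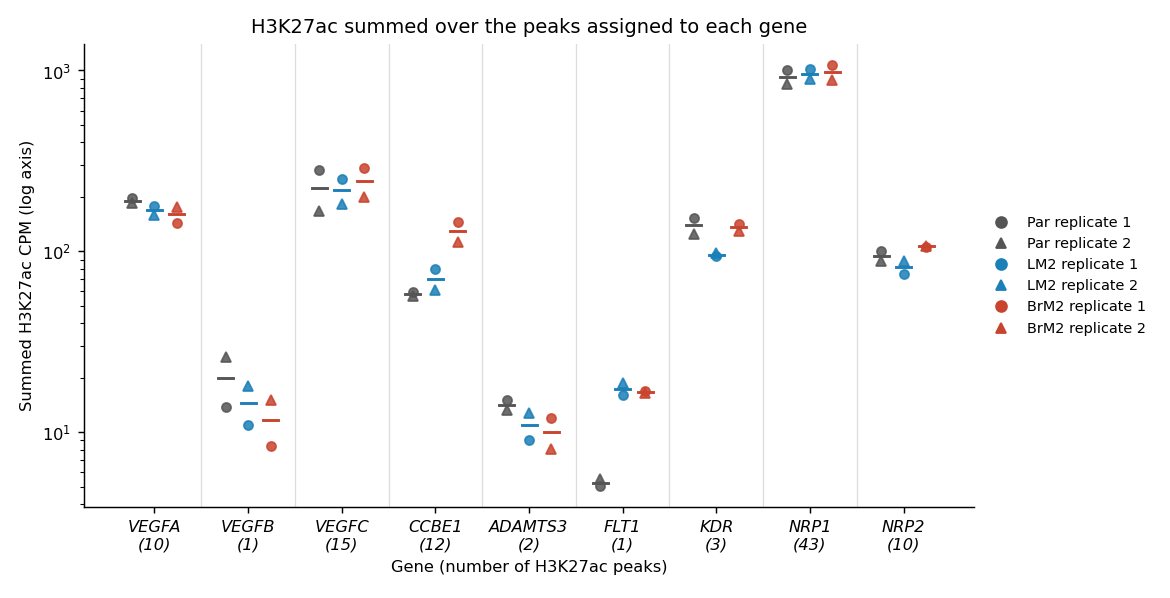
H3K27ac summed over the peaks assigned to each gene, in CPM (log axis), with 1 point per library, a bar at the mean of the 2 replicates and the number of peaks under each name. CCBE1 was highest in BrM2 (145.5 and 112.3), FLT1 was higher in LM2 and BrM2 than in Par (5.02 and 5.48), and NRP1 was similar in all lines. FLT4 had no peak.

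Across the family, 1 of 97 H3K27ac peaks was called in LM2 against Par, beside 2.86% of all peaks (2.14% higher). In BrM2 against Par 4 of 97 were called, beside 4.37% (2.99% higher), and in BrM2 against LM2 1 of 97, beside 2.2% (1.28% higher). All of these calls were higher in the line named first, and the shares were near or under those over all peaks. DESeq2 gave an adjusted p to 74, 80 and 70 of the 97 in the 3 comparisons. The median of the 97 was -0.18, 0.04 and 0.25, beside -0.02 in each comparison over all peaks. With the replicate block 1, 4 and 3 were called, beside 4.18%, 6.39% and 4.14%, and edgeR called 1, 6 and 2, beside 5.14%, 6.88% and 3.89%. At the 100 kb limit, the peak just inside lay 96126 bp from a VEGFA start with 0.465 to 1.57 CPM, and the nearest one left out, 105046 bp from an NRP1 start, held 0.783 to 4.34 CPM. Stronger peaks also lay outside, such as those 107301 bp from a VEGFC start (37.6 to 55.9 CPM) and 149436 bp from a VEGFA start (26.6 to 40.8 CPM). Both held more CPM in every library than the strongest distal peak named for that gene. For H3K4me3 the nearest peak left out lay 2571 bp from VEGFB and over other genes' starts.

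**Figure D5:**
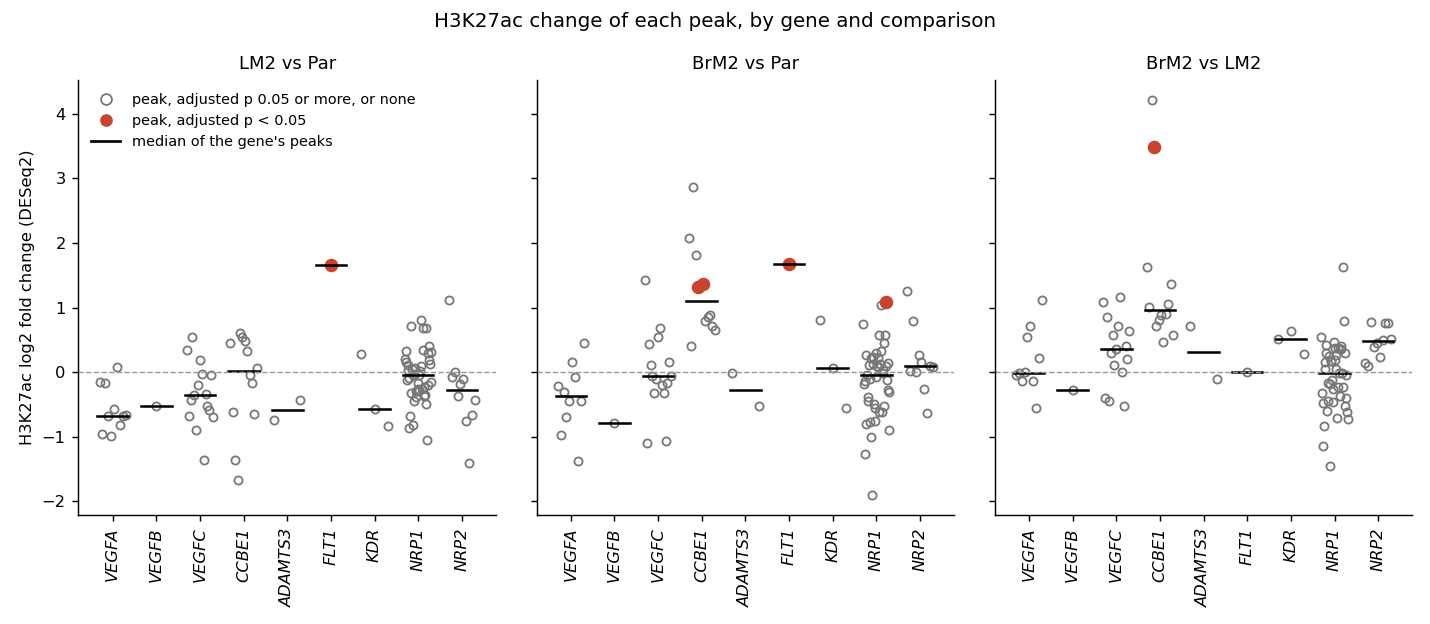
DESeq2 log2 fold change of H3K27ac at each of the 97 peaks, by gene, in the 3 comparisons. Red points have an adjusted p under 0.05, open points do not or have none, and bars mark each gene's median. All 12 CCBE1 peaks lay above 0 in both BrM2 panels, and the NRP1 medians lay between -0.05 and -0.02.

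The wider pathway was read at 73 other genes: further ligands and processing enzymes, hypoxia regulators, angiopoietins, neuropilin partners and receptor signalling. Of their 70 promoter H3K4me3 peaks, 2 were called higher in LM2 than in Par (2.86% called, beside 2.32% of all peaks), 1 in BrM2 (1.43%, beside 3.54%) and 0 between BrM2 and LM2 (beside 3.18%), with 0 called lower in any comparison. All of these calls fell in the group of further ligands and processing enzymes, whose 6 peaks had medians of 0.64, -0.19 and -0.65 in the 3 comparisons. With the replicate block the calls above Par numbered 12 in LM2 and 5 in BrM2, those below it 2 and 16, and BrM2 exceeded LM2 at 5 peaks and lay under it at 22, in a fit that called 12.7%, 17.3% and 21.1% of all peaks. PGF, which encodes placental growth factor, a ligand of FLT1, rose in LM2 from 14.0 and 16.2 CPM in Par to 56.9 and 58.9, a log2 fold change of 1.98 (SE 0.36, adjusted p = 1.18e-05). It held 31.9 and 32.2 CPM in BrM2, between the other lines. This call was kept without any 1 library (adjusted p at most 0.026).

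PCSK5, a proprotein convertase of the kind that cuts VEGF-C precursors inside the cell, rose in both metastatic lines. Promoter H3K4me3 was 31.2 and 36.5 CPM in Par, and 94.3 to 102.5 over the LM2 and BrM2 libraries, with fold changes of 1.55 (adjusted p = 0.000417) and 1.52 (adjusted p = 0.000373) on the log2 scale. Leaving out Par replicate 2 or LM2 replicate 1 raised the first adjusted p to 0.1 and 0.099, and leaving out Par replicate 2 or BrM2 replicate 1 raised the second to 0.0636 and 0.0624. An H3K27ac peak of PCSK5, 24780 bp from its nearest start, rose from 1.82 and 3.39 CPM in Par to 44 and 37.2 in LM2 and 54.8 and 46.6 in BrM2. These differences of 3.92 (adjusted p = 5.11e-15) and 4.31 (adjusted p = 2.56e-18) held without any 1 library.

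Of 343 H3K27ac peaks of the 73 genes, 12 were higher and 1 lower in LM2 than in Par (3.79% called, beside 2.86% of all peaks), 7 higher and 1 lower in BrM2 (2.33%, beside 4.37%), and 2 higher and 4 lower in BrM2 than in LM2 (1.75%, beside 2.2%). With the replicate block these became 16 and 2, 10 and 9, and 5 and 7, beside 4.18%, 6.39% and 4.14% of all peaks called. The higher calls in LM2 were 6 of 172 peaks of receptor signalling genes, 4 of 28 of the further ligands and processing enzymes and 2 of 75 of the neuropilin partners. The angiopoietin system had 2 of the 4 lower calls in BrM2 against LM2, both at ANGPT2, a ligand of TEK, which was named after its values were seen. With the 5 Mb medians removed their adjusted p was 0.883 and 0.913, and without any 1 LM2 or BrM2 library it was 0.168 to 0.463 and 0.244 to 0.772. Beside PCSK5, the smallest adjusted p against Par belonged to PIK3CB, a catalytic subunit of PI3 kinase, and PLXNA1, a plexin that signals with neuropilins. The PIK3CB peak rose from 1.82 and 1.83 CPM in Par to 26.2 and 9.31 in LM2 (3.23, adjusted p = 1.57e-05, and 0.112 without LM2 replicate 1) and to 25.2 and 19.5 in BrM2 (3.63, adjusted p = 4.96e-07). PLXNA1 rose by 4.09 in LM2 at a peak with 0.456 and 0.522 CPM in Par and 6.82 and 10.6 in LM2 (adjusted p = 0.00166, 0.0744 without Par replicate 2 and none given without Par replicate 1 or LM2 replicate 2), and by 2.20 in BrM2 at another peak (adjusted p = 3.05e-05).

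Between BrM2 and LM2 the leading pathway peaks belonged to PTK2 and SRC, kinases downstream of KDR, and to FURIN, a convertase of VEGF-C. PTK2 was higher in BrM2 by 1.77 (adjusted p = 4.8e-05), with 14.9 and 19.4 CPM in LM2 and 50.2 and 61.2 in BrM2, and the adjusted p was 0.0703 without LM2 replicate 1 and 0.0510 without BrM2 replicate 2. FURIN was lower by 1.39 (log2 fold change -1.39, adjusted p = 0.000314), with 124.2 and 152.4 CPM in LM2 and 47.7 and 53.1 in BrM2 at its promoter, and 0.798 with the 5 Mb medians removed, 0.0874 without LM2 replicate 2 and 0.163 without BrM2 replicate 1. SRC was higher by 1.51 (adjusted p = 0.00452), a call lost without LM2 replicate 1 (0.0694), LM2 replicate 2 (0.233) or BrM2 replicate 1 (0.776). Hypoxia regulators, with 49 H3K27ac and 10 H3K4me3 peaks over 8 genes, gave 0 called H3K4me3 peaks and 1 called H3K27ac peak. It lay over the start of EGLN1, an oxygen sensor that marks HIF-1 alpha for degradation, and was likewise named after its values were seen. It held 96.7 and 105.2 CPM in Par and 46.9 and 58.6 in BrM2, a difference of -0.94 on the log2 scale (adjusted p = 0.0234). The adjusted p was 0.337 with the 5 Mb medians removed and 0.0558 to 0.531 without any 1 library other than LM2 replicate 2.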

How the data were processed

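H3K4me3 and H3K27ac ChIP-seq counts were analysed for 12 libraries of MDA-MB-231 cells (Par, LM2 and BrM2, 2 replicates per mark). The 3 input samples were not analysed here. The authors deposited raw counts per consensus peak, made with featureCounts 1.6.0 per the file headers. The submitters' processing notes name hg19, Trimmomatic 0.32, Bowtie2 2.3.4.3, Picard 2.18.21 and MACS2 2.1.2, and the study's methods state that reads of each mark were merged for broad peak calling, so a peak need not be present in every line. Per the labels, fixation used 1% formaldehyde and lasted 10 min, and the study's methods give a longer time.

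Peaks were assigned to protein-coding starts of GENCODE release 44 lifted to hg19, by nearest start, which need not be the gene that an element acts on. Counts were fitted over all peaks of a mark with DESeq2 1.42.0 (Wald test, 6 libraries, cell line as the term, Benjamini-Hochberg adjustment over all peaks, default independent filtering), and a peak was called at an adjusted p under 0.05. Fold changes are unshrunken. The study's methods give the replicates as biological. Replicates differed beyond sampling noise (chi-square per degree of freedom 2.29 to 13.0). Same-numbered libraries deviated together (correlations 0.788 to 0.843 in H3K4me3 and 0.407 to 0.607 in H3K27ac), so the numbers were taken to pair them. Alternatives were edgeR 4.0.16, the replicate block, other scalings, a count minimum, other membership rules and leaving out each library. The fits were tested on simulated data. Counting intervals are exact at the 95% level for the summed counts of the 2 replicates and leave out the spread between them.

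The members and lists were chosen with earlier results of these data known. Every gene was named with its H3K4me3 peak, its H3K27ac peaks within 2 kb of a start, its strongest distal H3K27ac peak and every called one, and the pathway list with up to 3 peaks per mark and comparison by smallest adjusted p. One NRP1 peak outside the rule is named as such.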

Additional observations from a re-analysis of the deposited data

Results flagged for a closer look

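The changes of LM2 and BrM2 against Par differed at 2 of the tested regions, by the direct comparison of the lines. At the FLT1 promoter, H3K4me3 rose in BrM2, with 66 and 64 counts against 2 and 11 in LM2. The difference of BrM2 from LM2 was 3.71 on the log2 scale (adjusted p = 0.000232 by DESeq2, and 1.77e-05 with the replicate block). As most counts came from BrM2, the region may have become a peak through that line alone. At the CCBE1 H3K27ac peak 3058 bp upstream of the start, the difference was 3.48 (adjusted p = 0.00921 by DESeq2). It held 30 and 10 counts in BrM2 against 3 and 3 in LM2. CCBE1 was chosen for its low H3K4me3 in LM2, so this comparison near the same start need not be independent of that choice. With the replicate block DESeq2 gave no adjusted p, and the results of leaving out single libraries are given above. Within 1 Mb of the CCBE1 start, 31 of 39 other H3K27ac peaks were also higher in BrM2 than in LM2 (median 0.55). With the 5 Mb medians removed the difference at the CCBE1 peak was 2.72 (adjusted p = 0.134 by DESeq2). The part of the region in it was not tested.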

How the results depend on the processing

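No result changed sign among called values. Of the H3K4me3 promoters called (0 in LM2 and 1 in BrM2 against Par, 1 in BrM2 against LM2), the replicate block, which pairs same-numbered libraries, gave 1, 2 and 2, and edgeR with the block gave 1, 3 and 4, where it called 26.2%, 33.3% and 38.6% of all peaks. Requiring at least 10 counts in every library left 0 in both BrM2 comparisons, because FLT1 was then not tested. Of the H3K27ac peaks called (1, 4 and 1), edgeR with the block gave 5, 11 and 11, beside 13.2%, 15.9% and 12.5% of all peaks. With the 5 Mb medians removed 0, 2 and 0 remained called. In BrM2 against LM2 the block gave 3, edgeR 2, loess offsets 2 and the 10-count minimum 0. Taking H3K27ac within 50 kb left 0 in LM2 against Par, as the FLT1 element lies farther away. Leaving out 1 library at a time gave 0, 0 to 1 and 0 to 1 called H3K4me3 promoters, and 0 to 1, 0 to 3 and 0 to 1 called H3K27ac peaks. Except as stated, the cause was not tested. Total counts as size factors and gene-level starts left every count of called peaks as it was, and TMM scaling changed it to 3 in BrM2 against Par of H3K27ac alone. The block changed no other call than those printed. With 2 replicates per line, low-count peaks (FLT1, and CCBE1 in LM2) limit what can be resolved, and a line left with 1 library was assumed to vary like the others.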
